A study of Homo sapiens with 18 samples.

Results

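The potassium channel genes examined here are the 93 gene symbols, of 55765 in the deposited expression table, that consist of KCN, further letters and a closing number. Every symbol that fits was kept, whatever its level. The set therefore holds the pore-forming subunits of potassium channels together with the auxiliary proteins that carry KCN symbols. All 93 are protein-coding in GENCODE v29.

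The genes were measured by poly(A) RNA sequencing in G401, a cell line from a malignant rhabdoid tumour, a childhood cancer of kidney and soft tissue that lacks the chromatin remodelling subunit SMARCB1. All the lines compared are G401 cells that went through CRISPR/Cas9 editing. WT is the control, cut at the AAVS1 safe harbour site and with RB1 intact, and whether it is a clone is not given in the sources used here. E1 and F2 carry disruptions of both alleles of RB1, the tumour suppressor that restrains E2F transcription factors, and each is 1 clone, so that a difference from WT cannot be told apart from a difference between clones. Each line received 10 µM tazemetostat (TAZ), an inhibitor of the methyltransferase EZH2, or an equal volume of its solvent DMSO for 11 days, with 3 biological replicates in each of the 6 groups.

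Potassium channels let potassium ions leave or enter the cell along their gradient and so set the resting potential and end action potentials. Voltage-gated (Kv) channels open on depolarisation, calcium-activated channels open when calcium rises inside the cell, inward rectifiers and two-pore-domain channels carry resting currents, and auxiliary subunits tune gating and surface delivery. Many of these genes are restricted to neurons, muscle or epithelia. EZH2 is the catalytic subunit of the Polycomb complex PRC2, which places the repressive H3K27me3 mark, often at CG-rich promoters of developmental and neuronal genes.

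Because Polycomb binding is known to favour CG-rich promoters, the bases before the transcription start are printed for 6 genes on which the results turn: 4 with almost no reads in DMSO and many with tazemetostat, and the 2 that fell in every line. Each run is the 250 bases before the 5′-most RefSeq start of the gene in GRCh38.p14, read 5′ to 3′ on the gene's strand, with every CG dinucleotide in capitals.
KCNMA1, chr10:77637809-77638058, minus strand: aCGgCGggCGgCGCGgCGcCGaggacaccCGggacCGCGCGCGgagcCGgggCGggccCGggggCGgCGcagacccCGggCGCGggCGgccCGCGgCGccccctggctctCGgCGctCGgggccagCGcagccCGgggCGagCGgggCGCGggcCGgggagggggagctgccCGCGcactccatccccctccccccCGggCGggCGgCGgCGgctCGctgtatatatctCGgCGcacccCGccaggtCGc
KCNIP3, chr2:95346408-95346657, plus strand: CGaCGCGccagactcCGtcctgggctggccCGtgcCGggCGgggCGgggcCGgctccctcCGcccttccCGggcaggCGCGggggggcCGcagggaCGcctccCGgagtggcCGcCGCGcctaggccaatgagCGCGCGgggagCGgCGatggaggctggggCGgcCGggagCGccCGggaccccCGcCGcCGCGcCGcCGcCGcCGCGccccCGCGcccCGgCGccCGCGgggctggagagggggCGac
KCNS3, chr2:17877597-17877846, plus strand: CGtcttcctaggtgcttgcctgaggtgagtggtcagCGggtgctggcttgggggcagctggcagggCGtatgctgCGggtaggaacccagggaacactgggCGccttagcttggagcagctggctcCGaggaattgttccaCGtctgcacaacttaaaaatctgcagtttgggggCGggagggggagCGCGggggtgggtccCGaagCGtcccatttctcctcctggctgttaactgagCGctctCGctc
KCNMB1, chr5:170389368-170389617, minus strand: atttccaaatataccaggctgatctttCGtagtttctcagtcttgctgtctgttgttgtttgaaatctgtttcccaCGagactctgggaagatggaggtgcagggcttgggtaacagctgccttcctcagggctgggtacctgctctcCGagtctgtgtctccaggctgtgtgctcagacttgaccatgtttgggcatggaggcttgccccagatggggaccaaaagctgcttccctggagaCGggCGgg
KCNT2, chr1:196608441-196608690, minus strand: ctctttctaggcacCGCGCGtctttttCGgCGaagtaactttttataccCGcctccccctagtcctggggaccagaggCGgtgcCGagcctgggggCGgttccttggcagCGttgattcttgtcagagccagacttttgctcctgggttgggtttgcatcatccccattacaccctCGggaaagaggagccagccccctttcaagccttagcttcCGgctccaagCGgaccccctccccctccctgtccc
KCNJ13, chr2:232776566-232776815, minus strand: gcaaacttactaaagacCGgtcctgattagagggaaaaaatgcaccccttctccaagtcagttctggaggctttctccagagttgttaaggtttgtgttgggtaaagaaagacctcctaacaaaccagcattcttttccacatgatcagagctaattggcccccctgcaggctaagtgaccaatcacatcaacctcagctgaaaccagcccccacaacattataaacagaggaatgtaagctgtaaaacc
The 4 genes gained with tazemetostat did not share a promoter type by this count: the runs of KCNMA1 and KCNIP3 hold 46 and 44 CG dinucleotides, whereas that of KCNS3 holds 14 and that of KCNMB1 holds 5. KCNT2, which fell, has 13 and KCNJ13, which also fell, has 1. KCNMA1 has another RefSeq start whose window holds 1 CG, and KCNS3 has another whose window holds 38. The expression values are summed per gene and do not show which start was used.

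A RefSeq promoter was matched by symbol for 69 of the 93 genes, and their median was 15.0 CG dinucleotides in 250 bases against 10.0 over all 27305 promoters of that table. For the genes silent in DMSO and detected with tazemetostat in at least 1 line, as defined below, 11 of 14 were matched and the median was 25.0, with a range from 2 to 46. The genes detected in all 6 groups had a median of 20.5 (16 of 26 matched) and those with at most 3 reads in every library 15.0 (21 of 28 matched). The GC box GGGCGG, on either strand, was present in 58.0% of the matched potassium channel promoters and in 42.2% of all promoters. TATAAA, on either strand, was present in 10.1% and 11.2%. These are descriptions of the printed windows, not evidence of binding.

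The libraries behind these values held 25709489 to 39314860 reads, recovered from the deposited size-factor-normalized counts, and each of the 18 libraries correlated best with a library of its own group. RB1 transcript checked the labels: it was at most 1045 normalized counts in any library of E1 or F2 and at least 2300 in any of WT. SMARCB1 had 0 reads in all 18 libraries. EZH2, the drug's target, was 2478 ± 89 in WT with DMSO and 876 ± 42 with tazemetostat, 3178 ± 349 and 2989 ± 63 in E1, and 3207 ± 148 and 2649 ± 60 in F2 (SD, n = 3). Values below are normalized counts unless a log2 scale is named, and ± is the SD over 3 replicates unless called SE. In bulk RNA, fewer cells with a transcript and less transcript per cell cannot be told apart.

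Most potassium channel genes were silent in G401 cells with DMSO, and tazemetostat raised the number that could be detected in each line by more than 10. A gene is called silent in a group when each of its 3 libraries had at most 3 reads, and detected when each had at least 10. With DMSO, 58, 57 and 58 genes were silent in WT, E1 and F2, and 56 of these were silent in all 3 lines. Detected genes of the 3 lines numbered 29, 29 and 27 with DMSO, and 41, 40 and 43 with tazemetostat. Over all groups, 46 genes were detected somewhere, 26 were detected in all 6 groups and 28 never exceeded 3 reads in any library. Those 28 include most of the Kv1 family (KCNA1 and KCNA3 to KCNA7) and the kidney tubule rectifiers KCNJ1 and KCNJ10. KCNA3, KCNC2, KCNE3, KCNG4, KCNU1 and KCNV2 had 0 reads in all 18 libraries.

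**Figure D1:**
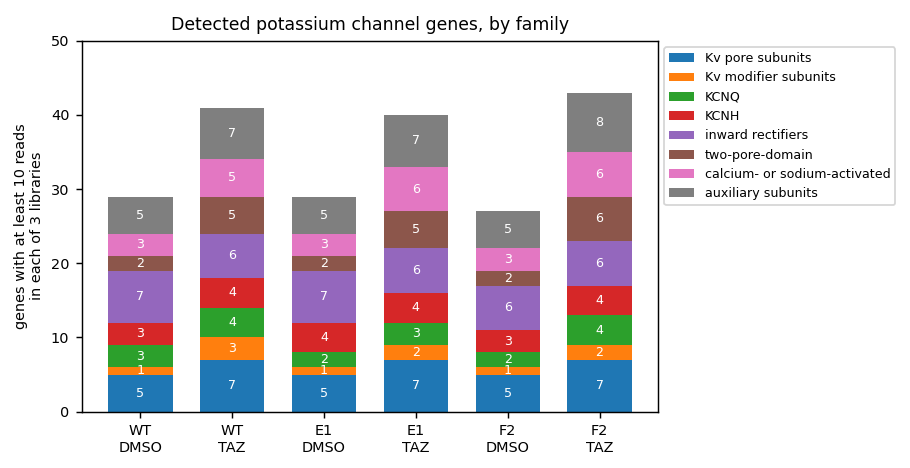
Number of potassium channel genes (y axis) with at least 10 reads in each of 3 libraries, for the 6 groups (x axis), coloured by family with the count in each segment. The total went from 29 to 41 in WT, from 29 to 40 in E1 and from 27 to 43 in F2, and the calcium- or sodium-activated genes went from 3 to 5, 6 and 6.

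The genes silent in DMSO and detected with tazemetostat numbered 11, 9 and 11 in WT, E1 and F2, and 6 of them appeared in all 3 lists: KCNA2, KCNIP3, KCNMA1, KCNMB1, KCNN2 and KCNS3. Many other genes made the same step. Over all 55765 rows it was made by 1.58%, 1.48% and 1.80% of rows in the 3 lines, but most rows of the table are not protein-coding. Over the 18380 protein-coding rows it was made by 3.94%, 3.71% and 4.57%. Of silent genes alone, it was made by 725 of 5776 protein-coding genes that were silent in WT with DMSO, 681 of 5854 for E1 and 840 of 6002 for F2. The potassium channel genes gave 11 of 58, 9 of 57 and 11 of 58, or 19.0%, 15.8% and 19.0%. The values to set beside these are the counts of silent protein-coding genes, not the percentages over all protein-coding rows. Of the silent potassium channel genes, 35, 36 and 36 stayed at 3 reads or fewer in each tazemetostat library.

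The list of silent genes that became detected in at least 1 line has 14 members: KCNA2, KCND3, KCNIP3, KCNK1, KCNK3, KCNK10, KCNK12, KCNK13, KCNMA1, KCNMB1, KCNN2, KCNQ3, KCNS3 and KCNV1. They comprise Kv pore subunits (KCNA2, KCND3), Kv modifiers (KCNS3, KCNV1), a neuronal M-current subunit (KCNQ3), 5 two-pore-domain channels, 2 calcium-activated channels and 2 auxiliary subunits. KCNK3, KCNK10, KCNK12, KCNQ3 and KCNV1 were below the mean of 10 normalized counts over 18 samples that the test required, so their values are descriptions.

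**Figure D2:**
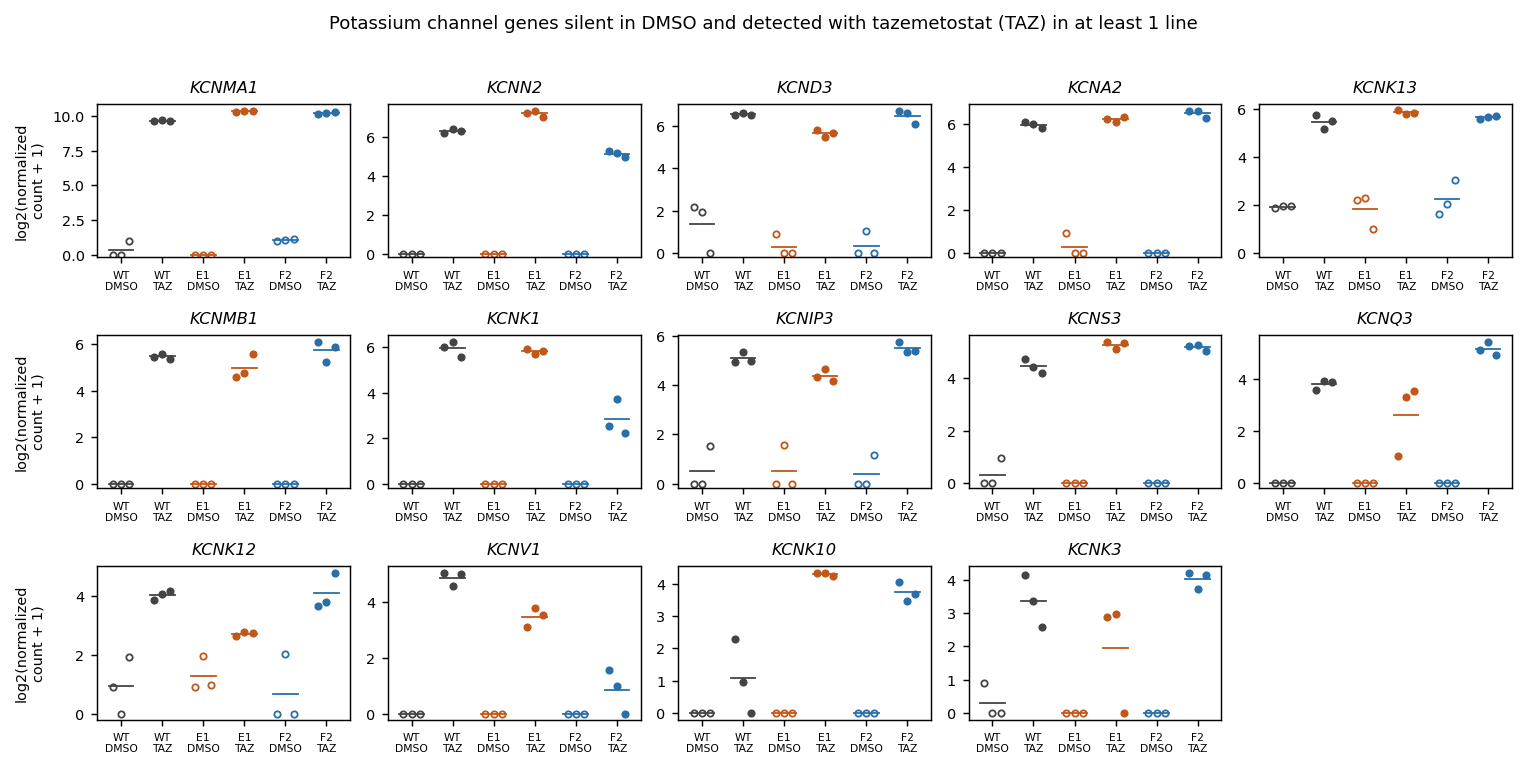
Level of the 14 genes that were silent in DMSO and detected with tazemetostat (TAZ) in at least 1 line, as log2(normalized count + 1) on the y axis, for each library of the 6 groups. Open points are DMSO, filled points TAZ and bars the mean of 3 libraries. KCNMA1 reached 800 to 1325 normalized counts with TAZ, and KCNK1 was lower in F2 than in WT and E1.

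The levels were then compared between tazemetostat and DMSO within each line by limma on log2(value + 1), with Benjamini-Hochberg adjustment over 16154 genes. A gene is past the threshold when its adjusted p is under 0.05 and its log2 change is at least 1 in size. Of the 93 potassium channel genes, 40 were tested and 53 were too low. In WT 14 rose and 3 fell, in E1 15 rose and 5 fell, and in F2 14 rose and 2 fell. Over all tested genes 14.5% rose and 6.77% fell in WT, 11.3% and 3.78% in E1, and 13.3% and 3.71% in F2. For the 40 genes the median log2 change was 0.63, 0.30 and 0.60, against 0.03, 0.02 and 0.02 over all tested genes. Without WT TAZ replicate 3 the number that fell in WT was 5, with KCNIP2 and KCNJ11 added.

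The filter shapes those counts, because a gene that was silent in DMSO entered the test only through its tazemetostat libraries. Among genes with at least 10 reads in each DMSO library, 5 of 29 potassium channel genes rose and 3 fell in WT, where 8.21% and 7.35% of all such genes did. In E1 4 of 29 rose and 5 fell, against 4.48% and 4.06%, and in F2 3 of 27 rose and 2 fell, against 5.94% and 4.10%. The median log2 change of these genes was 0.28, -0.15 and 0.09 in WT, E1 and F2, against -0.03, -0.01 and -0.02 over all such genes.

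Over the 3 lines, 12 genes rose in each, among them KCNA2, KCNC1, KCND3, KCNH1, KCNIP3, KCNK1, KCNK13, KCNMA1, KCNMB1, KCNN2 and KCNS3. KCNJ13 and KCNT2 fell in each. KCND1 rose in WT, KCNH4 in F2, and KCNN3, KCNN4 and KCNQ1 in E1. KCNAB3 fell in WT, and KCNJ4 and KCNN1 fell in E1. KCNJ16 rose in WT and F2 and fell in E1. The other 17 tested genes were past the threshold in no line, among them KCNH2, the hERG channel of cardiac repolarisation.

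**Figure D3:**
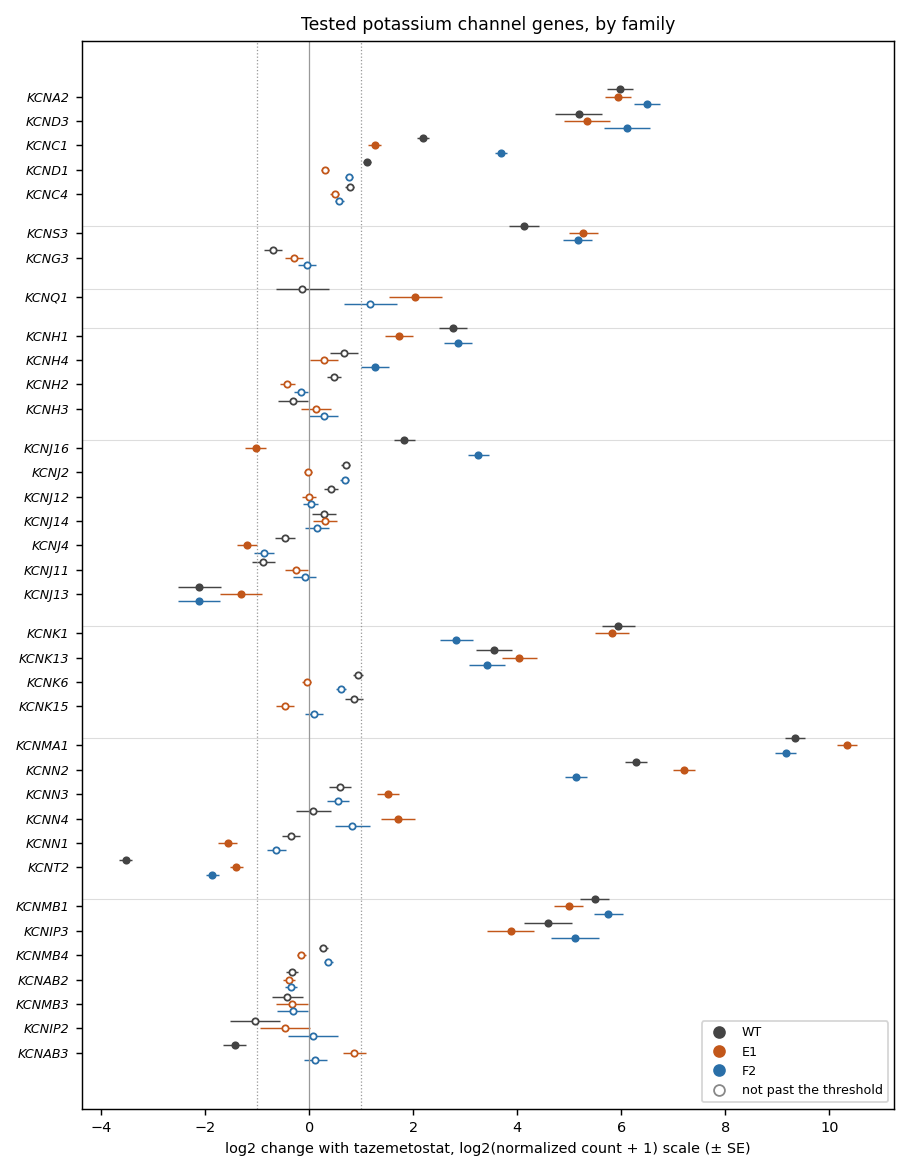
Log2 change with tazemetostat (x axis, log2(normalized count + 1) scale, bars are SE) of tested potassium channel genes (y axis), ordered by family, in WT, E1 and F2. Filled points are past the threshold, dotted lines mark a log2 change of 1 in either direction, and KCNMA1 has changes of 9.34, 10.34 and 9.16.

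Of the 17 Kv pore subunits 7 were tested, and 5 of these rose in WT and 4 in each clone, and none fell. Over all tested genes 14.5%, 11.3% and 13.3% rose in WT, E1 and F2. KCNA2 and KCND3, near 0 reads with DMSO, entered the test only through their tazemetostat libraries, so a rise was the only call open to them. KCNC4, a Kv channel of neurons, was among the 5 genes with the highest mean and passed the threshold in no line. It was 526 ± 32 with DMSO and 902 ± 52 with tazemetostat in WT, 583 ± 50 and 818 ± 82 in E1, and 515 ± 52 and 770 ± 30 in F2.

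KCNC1, a channel of fast-firing neurons, rose in all 3 lines and by unequal amounts. It measured 106, 104 and 109 in the WT DMSO libraries and 491, 470 and 504 with tazemetostat. The E1 libraries gave 147, 100 and 108 with DMSO and 303, 278 and 268 with tazemetostat. In F2 it was 77.9, 69.5 and 84.9 with DMSO and 1071, 963 and 983 with tazemetostat. In no line did the treated and untreated libraries overlap, and the 3 treated groups were also apart from each other, F2 highest and E1 lowest. The ratio of treated to untreated means was 4.60, 2.38 and 13.0 in WT, E1 and F2, and the log2 changes were 2.19, 1.26 and 3.69 (SE 0.12 each, limma adjusted p 1.6e-11, 6.6e-08 and 6.9e-15).

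KCNA2, an axonal delayed rectifier, and KCND3, a transient A-type channel of heart and brain, went from at most 4 reads in a DMSO library to clear expression. KCNA2 had 0 reads in 8 of the 9 DMSO libraries and 1 in the other, and reached 62.4 ± 5.7 in treated WT, 74.7 ± 6.2 in treated E1 and 90.3 ± 12 in treated F2. Against a floor of 3 reads per library this was at least 22.6-fold, 26.4-fold and 27.6-fold higher. KCND3 was 2.11 ± 1.9 with DMSO and 92.4 ± 3.5 with tazemetostat in WT, a ratio of means of 43.8. In E1 it reached 49.3 ± 5.4 and in F2 88.1 ± 19, at least 17.4-fold and 26.9-fold above the floor. The WT ratio is not a bound against the floor, as 1 WT library with DMSO had 4 reads. It cannot be ranked against the values of E1 and F2. The log2 change of KCNA2 was 5.98, 5.93 and 6.50 (SE 0.25 each) and that of KCND3 5.18, 5.34 and 6.11 (SE 0.45 each), on a scale that depends on the added 1 for genes near 0.

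KCND1, a relative of KCND3, was detected throughout and passed the threshold in WT. It was 597, 615 and 621 with DMSO and 1299, 1285 and 1374 with tazemetostat in WT, a log2 change of 1.11 (limma adjusted p 7.8e-10, SE 0.08). It was 0.96, under the threshold, when libraries were scaled to the same total. In E1 its libraries were 608, 537 and 529, then 748, 628 and 683, and in F2 436, 472 and 477, then 843, 784 and 720. The groups did not overlap in E1 or F2 either, but the log2 changes of 0.30 and 0.76 were under 1.

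Kv modifier subunits do not form channels alone and alter the gating of the Kv channels they join. KCNS3 had at most 1 read in any DMSO library and reached 21.1 ± 4.2 in treated WT, 37.6 ± 4.1 in treated E1 and 34.9 ± 3.1 in treated F2, at least 7.66-fold, 13.3-fold and 10.7-fold above the floor. Its log2 changes were 4.13, 5.27 and 5.16 (SE 0.28 each). KCNS3 entered the test only through its tazemetostat libraries, so a rise was the only call open to it. KCNV1 had 0 reads in all 9 DMSO libraries and was 31.5, 22.4 and 30.8 with tazemetostat in WT. In E1 it was 7.45, 12.6 and 10.4, and in F2 it stayed at the floor with 1.94, 1.01 and 0. The treated WT libraries therefore lay above those of both RB1 clones, with means 2.79-fold above E1 and at least 9.73-fold above F2. KCNG3, the other tested modifier, passed the threshold in no line.

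The KCNQ family carries the neuronal M-current and slow cardiac repolarisation, and 3 of its 5 genes were tested. KCNQ3, a subunit of the M-channel, had 0 reads in every DMSO library. With tazemetostat it was 12.8 ± 1.7 in WT. The treated E1 libraries had 1.06, 8.70 and 10.4, and the treated F2 libraries 33.0, 41.4 and 28.7. The 3 treated F2 libraries lay above the other treated libraries, whereas E1 had 1 library at a single read.

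KCNQ1, the cardiac and epithelial member, rose in E1, from 5.36, 5.79 and 0 with DMSO to 13.8, 9.67 and 17.9 with tazemetostat, a log2 change of 2.04 (limma adjusted p 0.0028, SE 0.51). In WT it was 21.1 ± 4.2 and 19.4 ± 4.4, and in F2 9.36 ± 0.88 and 23.0 ± 7.7, neither past the threshold. The F2 libraries did not overlap, and their log2 change of 1.17 had a limma adjusted p of 0.064. It passed with only the F2 groups in the fit (0.0055), and with edgeR (1.27, adjusted p 0.013) and DESeq2 (1.29, adjusted p 0.013). KCNQ1 shares its locus with the antisense transcript KCNQ1OT1, which is in the table, and whether the counting used strand is not given in the sources used here.

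Of the KCNH family, 4 of 8 genes were tested. KCNH1, the ether-à-go-go channel of brain that is also studied in tumours, rose in all 3 lines. It was 9.61, 19.8 and 12.3 in WT with DMSO and 105, 96.3 and 88.7 with tazemetostat. The E1 libraries gave 17.0, 9.65 and 23.4, then 50.0, 44.5 and 70.7, and in F2 20.5, 21.8 and 17.0, then 146, 143 and 157. Treated and untreated libraries were apart in each line, and the treated E1 libraries lay below those of WT and F2. The ratios of means were 6.96, 3.30 and 7.53, and the log2 changes 2.77, 1.72 and 2.86 (SE 0.27 each, limma adjusted p 5.7e-08, 3.9e-05 and 4.6e-08). KCNH4 rose in F2, from 11.1 ± 2.4 to 27.6 ± 3.9, a log2 change of 1.26 (limma adjusted p 7.2e-04, SE 0.27).

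The inward rectifiers, which pass potassium more readily into the cell than out of it, held 7 tested genes of 15, and no member silent in DMSO became detected. KCNJ2, a main carrier of the resting current in heart and skeletal muscle, had the highest mean of all 93 genes, also per kilobase of exon (587 normalized counts per kb, mean of 18, against 226 for KCNK15). It was 3235 ± 126 with DMSO and 5249 ± 355 with tazemetostat in WT, 2519 ± 198 and 2477 ± 133 in E1, and 2378 ± 269 and 3782 ± 15 in F2, past the fold threshold in none. KCNJ2 overlaps the antisense KCNJ2-AS1.

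KCNJ16, a subunit of kidney tubule and glial rectifiers, went in opposite directions in the lines. In WT it was 32.3, 39.6 and 42.6 with DMSO and 146, 157 and 112 with tazemetostat. In F2 it was 17.4, 12.4 and 9.71, then 133, 117 and 144. For E1 the values were 33.9, 38.6 and 36.0, then 19.2, 16.4 and 16.0. The treated libraries were all above the untreated in WT and F2 and all below them in E1. Means were 3.63-fold higher in WT and 9.97-fold higher in F2, and 2.10-fold lower in E1. The log2 changes were 1.83, 3.25 and -1.03 (SE 0.20 each, limma adjusted p 1.9e-07, 5.6e-11 and 2.8e-04). The E1 value sat at the fold threshold, and was -0.99 without E1 DMSO replicate 2 and -0.99 without E1 TAZ replicate 3, and -0.92 with an added 4 in place of 1. Its usual partner KCNJ10 had at most 3 reads in all 18 libraries.

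KCNJ13, a rectifier of epithelia such as the retinal pigment epithelium, fell in all 3 lines from low levels. It was 36.4 ± 4.1 with DMSO and 7.77 ± 1.8 with tazemetostat in WT, 21.8 ± 5.0 and 8.18 ± 1.7 in E1, and 21.1 ± 3.3 and 5.20 ± 4.1 in F2. These means were 4.68-fold, 2.67-fold and 4.06-fold lower, with log2 changes of -2.11, -1.31 and -2.12 (SE 0.41 each, limma adjusted p 2.0e-04, 0.014 and 2.5e-04). Without E1 TAZ replicate 1 the change in E1 was -1.16 with an adjusted p of 0.052. KCNJ13 lies inside GIGYF2 on the opposite strand, and reads of both genes could not be told apart if strand was not used.

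KCNJ4, a neuronal and muscle rectifier, fell in E1, from 645, 624 and 338 to 243, 215 and 212, a log2 change of -1.20 (limma adjusted p 3.2e-05, SE 0.19). In WT it was 438, 385 and 355, then 280, 272 and 294, and in F2 375, 571 and 432, then 259, 252 and 230. The treated libraries were the lower ones in all 3 lines, but the changes in WT and F2 were under the fold threshold. E1 DMSO replicate 3 was low for this gene.

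Two-pore-domain channels carry background current. Of 15 genes 4 were tested, and KCNK1 and KCNK13 rose in every line. Over all tested genes 14.5%, 11.3% and 13.3% rose in WT, E1 and F2. Both KCNK1 and KCNK13, at or near the floor with DMSO, entered the test only through their tazemetostat libraries. A rise was therefore the only call open to them. KCNK1, a weakly conducting channel of brain and kidney, had 0 reads in all 9 DMSO libraries. Treated WT libraries had 63.1, 73.9 and 46.8 and treated E1 libraries 58.6, 51.3 and 56.5, but those of F2 had 4.85, 12.1 and 3.70. WT and E1 overlapped, and the 3 F2 libraries lay far below both. The levels were at least 22.2-fold, 19.6-fold and 2.10-fold above the floor. KCNK13, a channel known from microglia, went from 2.76 ± 0.12 to 43.7 ± 8.8 in WT, from 2.80 ± 1.6 to 57.2 ± 4.0 in E1 and from 4.15 ± 2.8 to 49.3 ± 2.6 in F2, with log2 changes of 3.55, 4.04 and 3.42 (SE 0.34 each). No response difference of KCNK13 passed the threshold.

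The other two-pore genes of the silent list were low. KCNK10, a mechanically and thermally gated channel, had 0 reads in every DMSO library and was 18.8 ± 0.79 with tazemetostat in E1 and 12.6 ± 2.8 in F2. In treated WT it was 3.94, 0.935 and 0, which left WT 11.6-fold below E1 and 7.72-fold below F2. These are ratios to a WT mean of 1.63, which is near the floor, so their size is uncertain. KCNK12, a relative of KCNK13, was 15.6 ± 1.7 with tazemetostat in WT and 17.2 ± 8.4 in F2, where the libraries spread from 11.7 to 26.8, and 5.59 ± 0.25 in E1. KCNK3, an acid-sensitive background channel, had 16.8, 9.35 and 4.93 in treated WT, 6.39, 6.77 and 0 in treated E1, and 17.5, 12.1 and 16.6 in treated F2.

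KCNK15, a two-pore relative that is thought not to conduct by itself, was abundant in all groups. It was 583, 561 and 533 with DMSO in WT and 983, 1017 and 1047 with tazemetostat. In E1 it was 598, 726 and 385, then 429, 367 and 410, and in F2 383, 576 and 465, then 526, 502 and 469. The treated WT libraries stood above all other libraries, whereas in E1 and F2 the treated and untreated libraries overlapped. It passed the threshold for the change with tazemetostat in no line, and it overlaps RIMS4 on the opposite strand.

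The calcium- or sodium-activated channels held the gene with the largest log2 change of the 40 tested. KCNMA1 forms the pore of the large-conductance (BK) channel, which couples calcium to repolarisation in smooth muscle and neurons. Its DMSO libraries had 0 or 1 read each, giving 0, 0 and 0.946 in WT, 0 in all of E1 and 1.02, 1.04 and 1.21 in F2. The treated libraries of WT had 800, 831 and 800, those of E1 1263, 1307 and 1325, and those of F2 1148, 1202 and 1241. The 3 treated groups did not overlap with each other, and both clones lay above WT. KCNMA1 was at least 293-fold, 458-fold and 365-fold higher with tazemetostat, with log2 changes of 9.34, 10.34 and 9.16 (SE 0.20 each, limma adjusted p 2.0e-17, 5.7e-18 and 2.2e-17). KCNMA1 entered the test only through its tazemetostat libraries, so a rise was the only call open to it. With annotated exons that span 35644 bases in total, the mean of KCNMA1 per kilobase was still modest, 15.5 over the 18 libraries.

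KCNMB1, the auxiliary subunit that raises the calcium sensitivity of the BK channel in smooth muscle, appeared together with KCNMA1. It had 0 reads in all 9 DMSO libraries. The treated libraries of WT had 43.4, 47.7 and 40.6, those of E1 23.4, 26.1 and 47.1, and those of F2 68.0, 37.3 and 57.3. The treated groups overlapped with each other, so the lines could not be ordered. The levels were at least 15.9-fold, 11.4-fold and 16.6-fold above the floor, with log2 changes of 5.49, 4.99 and 5.75 (SE 0.28 each, limma adjusted p 4.0e-12, 2.0e-11 and 2.0e-12). As for KCNMA1, a rise was the only call open to KCNMB1. The SE is shared over all groups, and the DMSO groups had no spread. KCNMB1 overlaps CTD-2270F17.1 on the opposite strand. Of the other BK auxiliary genes, KCNMB4 was detected in all groups at 299 to 422 in the mean and KCNMB3 was lower, and neither passed the threshold.

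The small-conductance channels, which open with calcium and shape the pause after an action potential, did not move together. KCNN2 had 0 reads in all 9 DMSO libraries and 71.0, 82.3 and 78.8 normalized counts in treated WT, 149, 160 and 130 in treated E1, and 37.9, 35.3 and 29.6 in treated F2. The 3 treated groups did not overlap, with E1 highest and F2 lowest. The levels were at least 28.0-fold, 51.6-fold and 10.5-fold above the floor, with log2 changes of 6.29, 7.20 and 5.13 (SE 0.21 each, limma adjusted p 5.4e-15, 8.1e-16 and 1.0e-13). KCNN2 entered the test only through its tazemetostat libraries, so a rise was the only call open to it. The SE is shared over all groups, and the DMSO groups had no spread.

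KCNN3, another small-conductance channel, rose in E1 from 76.8, 42.5 and 74.0 to 204, 158 and 184, a log2 change of 1.52 (limma adjusted p 5.4e-06, SE 0.21). It was 50.9 ± 9.7 and 76.7 ± 7.5 in WT and 52.3 ± 3.5 and 77.4 ± 13 in F2, not past the threshold. KCNN1 fell in E1 from 87.5, 77.2 and 55.5 to 23.4, 22.2 and 25.4, a log2 change of -1.57 (limma adjusted p 5.3e-07, SE 0.18). In WT KCNN1 was 97.0, 118 and 100, then 73.9, 87.0 and 85.0, and in F2 106, 141 and 136, then 98.1, 75.7 and 73.1. The treated libraries were the lower ones in each line, and those of E1 were below every other library. KCNN4, the intermediate-conductance channel of blood cells and epithelia, rose in E1 from 15.2, 14.5 and 5.84 to 45.8, 44.5 and 27.3, a log2 change of 1.71 (limma adjusted p 2.5e-04, SE 0.33), while WT stayed at 6.13 ± 0.46 and 6.53 ± 0.37. In F2 it was 17.4, 20.7 and 9.71, then 29.1, 22.2 and 33.3, 1.77-fold higher with no overlap. That log2 change of 0.83 (limma adjusted p 0.041) was under the fold threshold, and it was 1.04 (adjusted p 0.024) without F2 DMSO replicate 2.

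KCNT2, a sodium-activated channel of neurons, was the member with the largest fall. It was 414, 389 and 495 with DMSO and 38.4, 36.5 and 34.5 with tazemetostat in WT. The E1 libraries gave 410, 302 and 410, then 139, 132 and 147, and in F2 545, 521 and 608, then 150, 135 and 176. Treated and untreated libraries were far apart in every line, and the treated WT libraries were well below those of both clones. The means were 11.9-fold, 2.68-fold and 3.63-fold lower in WT, E1 and F2, with log2 changes of -3.53, -1.40 and -1.86 (SE 0.13 each, limma adjusted p 5.4e-14, 5.2e-08 and 7.2e-10).

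Among the auxiliary subunits, 7 of 15 were tested, and KCNMB1 and KCNIP3 rose in each line. Over all tested genes 14.5%, 11.3% and 13.3% rose in WT, E1 and F2. Both KCNMB1 and KCNIP3 entered the test only through their tazemetostat libraries, so a rise was the only call open to them. The median log2 change of the 7 genes was -0.33, -0.15 and 0.12. KCNIP3 encodes a calcium-binding partner of the A-type channels such as KCND3 and had at most 2 reads in a DMSO library. It reached 33.5 ± 5.8 in treated WT, 20.1 ± 3.7 in treated E1 and 44.5 ± 7.7 in treated F2, at least 12.1-fold, 7.10-fold and 13.6-fold above the floor, with log2 changes of 4.59, 3.87 and 5.11 (SE 0.46 each). KCNAB3, a cytoplasmic β subunit of Kv channels, fell in WT from 69.9, 71.6 and 92.7 to 19.7, 33.7 and 33.3, a log2 change of -1.43 (limma adjusted p 1.4e-05, SE 0.22). For E1 the values were 45.5, 42.5 and 59.4, then 118, 76.4 and 80.1, a log2 change of 0.87, and in F2 77.9, 98.5 and 107, then 102, 97.9 and 106. The treated E1 libraries were thus all above the untreated ones, whereas in WT they were all below.

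Summed over the 93 genes, the normalized count was 12514 ± 444 with DMSO and 20131 ± 501 with tazemetostat in WT, 10860 ± 1016 and 12511 ± 762 in E1, and 11517 ± 605 and 16982 ± 95 in F2. Long genes weigh most in that sum. Per kilobase of exon it was 2184 ± 49 and 3279 ± 80 in WT, 1972 ± 234 and 1908 ± 129 in E1, and 2027 ± 131 and 2607 ± 19 in F2. Per kilobase the E1 groups overlapped, while those of WT and F2 were apart. KCNJ2, the gene with the highest mean per length, was higher on average with tazemetostat in WT and F2.

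With DMSO alone, 2 of the 40 tested genes differed between E1 and WT (5.00%, where 5.04% of all tested genes did), 2 between F2 and WT (5.00%, against 2.98%) and 6 between E1 and F2 (15.0%, against 7.56%). The first pair of comparisons shares the WT libraries. KCNQ1 was lower in E1 than in WT by -2.64 (SE 0.51, limma adjusted p 8.1e-04), with an adjusted p of 0.11 when only these groups were fitted. The largest positive E1 values, 0.75 for KCNN4, 0.73 for KCNH4 and 0.51 for KCNG3, and the negative value of -1.06 for KCND3 did not pass the threshold. KCNN4 passed without E1 DMSO replicate 3 (1.15, limma adjusted p 0.0083), and KCND3 without WT DMSO replicate 3 (-1.75, limma adjusted p 0.0015).

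F2 with DMSO had less KCNJ16 than WT, with a log2 difference of -1.49 (SE 0.20, limma adjusted p 2.9e-05), and more KCNN4, 1.19 (SE 0.33, limma adjusted p 0.015). The KCNN4 difference was 0.98 with an adjusted p of 0.079 without F2 DMSO replicate 2. The number of genes past the threshold was 1 without that library and 4 without WT DMSO replicate 3, where KCND3 and KCNMA1, both within a few reads of 0, were added. Differences of 0.74 for KCNMA1, 0.72 for KCNH3, -1.03 for KCND3 and -1.08 for KCNQ1 did not pass. E1 exceeded F2 in KCNJ16 (1.42) and KCNK6 (1.01), and was below it in KCNH3 (-1.52), KCNQ1 (-1.56) and KCNMA1 (-1.06), where both groups were at 0 or 1 read. KCNC1 differed by 0.59, under the fold threshold. KCNK6 dropped to 0.97 without E1 DMSO replicate 2 and 0.94 without F2 DMSO replicate 3. KCNQ1 was -0.65 (adjusted p 0.11) without E1 DMSO replicate 3, -1.50 (0.058) without F2 DMSO replicate 1 and -1.56 (0.051) without F2 DMSO replicate 2.

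With tazemetostat more genes separated the lines: 10 between E1 and WT, where 11.3% of all tested genes did, and 11 between F2 and WT, where 12.3% did. Both comparisons use the same treated WT libraries. KCNT2, KCNN4 and KCNAB3 were higher than in WT in both clones, with log2 differences of 1.91 and 2.04 for KCNT2, 2.38 and 1.94 for KCNN4, and 1.64 and 1.82 for KCNAB3 in E1 and F2. KCNK15 was lower in both, by -1.34 and -1.03, and its F2 value was -0.98 without F2 TAZ replicate 3. Between E1 and WT, KCNN3 was also higher (1.23), and KCNJ2 (-1.08), KCNN1 (-1.75) and KCNJ16 (-2.93) were among the lower ones.

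In F2 against WT with tazemetostat, KCNIP2 (1.41), KCNH3 (1.31), KCNJ11 (1.27), KCNH4 (1.04) and KCNC1 (1.04) were higher and KCNN2 (-1.16) and KCNK1 (-3.10) were lower. KCNJ11 encodes the pore of the ATP-sensitive channel, whose regulatory subunit ABCC8 had a mean of at most 3.15 in any group. KCNIP2 rested on a few libraries, with adjusted p 0.059 without WT TAZ replicate 1, 0.12 without WT TAZ replicate 2 and 0.070 without F2 TAZ replicate 2. KCNH4 was 0.95 without WT TAZ replicate 2 and 0.97 without F2 TAZ replicate 3, and KCNC1 was 0.99 without F2 TAZ replicate 1.

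Whether RB1 loss went with another response to the drug was tested as the difference between 2 lines in their log2 change with tazemetostat. The difference passed the threshold for 9 of the 40 genes between E1 and WT (10.0% of all tested genes), for 6 between F2 and WT (7.48%) and for 5 between E1 and F2 (5.81%). The E1 and F2 comparisons with WT share the WT libraries. KCNT2 and KCNAB3 were past it in both clones with the same sign, 2.13 and 1.67 for KCNT2 and 2.30 and 1.55 for KCNAB3 in E1 and F2. For KCNT2 this was a smaller fall than in WT. For KCNAB3 a fall in WT stood against 0.87 in E1 and 0.12 in F2.

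The clones differed from each other in the response of KCNJ16, KCNC1, KCNK1, KCNN2 and KCNMA1. For KCNJ16 the response of E1 was below that of F2 by a log2 difference of -4.29 (SE 0.28, limma adjusted p 4.2e-09), the largest response difference among the 40. Relative to WT it was -2.86 in E1 and 1.43 in F2. For KCNC1 the response of E1 was below that of F2 by -2.42 (SE 0.17, limma adjusted p 1.5e-08), and that of F2 exceeded WT by 1.49. KCNK1 and KCNN2 had 0 reads in every DMSO library, so that their response differences are the differences between treated libraries, 2.99 and 2.06 between E1 and F2 and -3.10 and -1.16 between F2 and WT. For KCNMA1 the E1 minus F2 difference of 1.18 came mostly from the single reads in the DMSO libraries of F2, and was 0.46 (adjusted p 0.063) with an added 4 in place of 1. Without E1 DMSO replicate 3 the comparison of E1 with F2 had 8 genes, with KCNH4, KCNN1 and KCNN3 added. Neither edgeR nor DESeq2 called the response differences of KCNK1, KCNN2, KCNS3 and KCNMA1. Both called that of KCNH1 between E1 and F2 (-1.17, adjusted p 0.040, and -1.18, adjusted p 0.030), which by limma was -1.14 with an adjusted p of 0.058 (from 0.0076 to 0.14 with single libraries left out).

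**Figure D4:**
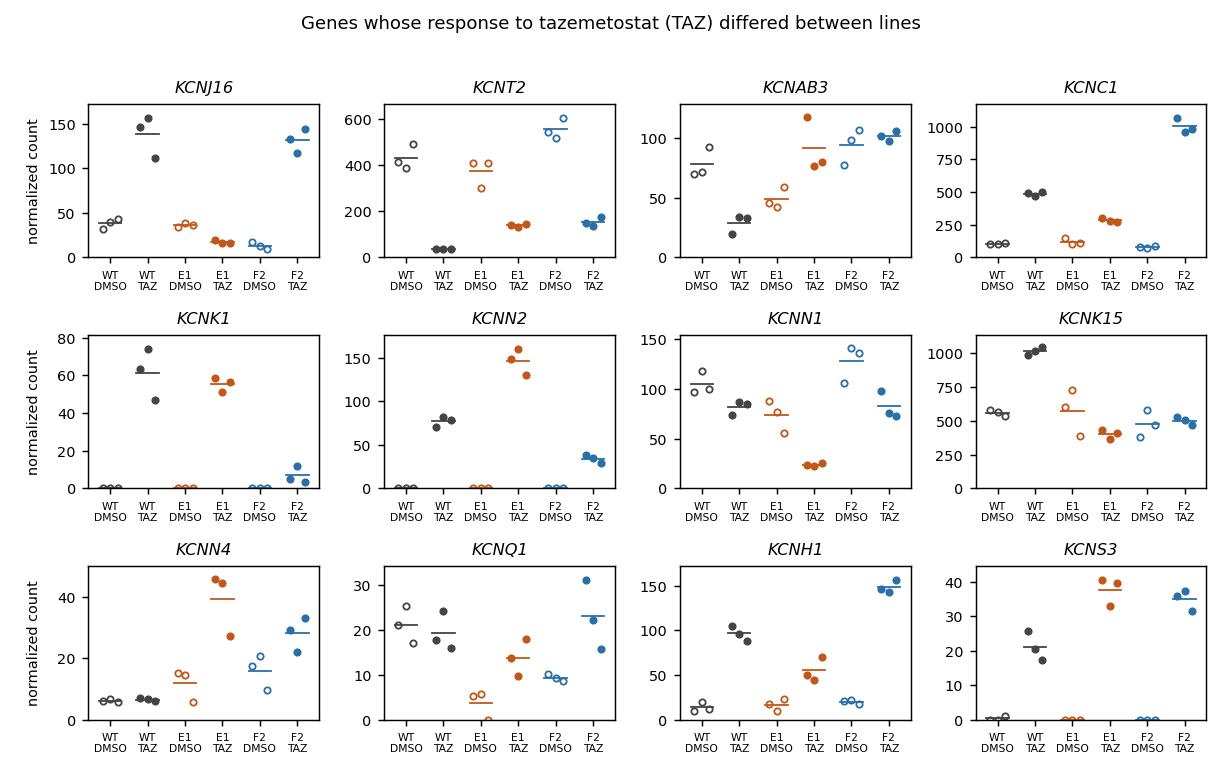
Normalized counts (y axis, from 0) of 12 of the 13 genes whose response to tazemetostat (TAZ) differed between lines, for each library of the 6 groups, with open points for DMSO, filled points for TAZ and bars for the mean of 3 libraries. KCNJ16 goes up in WT and F2 and down in E1, and KCNC1 reaches 963 to 1071 in F2 with TAZ.

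The remaining differences from WT were seen in E1. KCNN1 (-1.22) and KCNK15 (-1.32) responded lower than in WT, KCNN4 (1.63) and KCNQ1 (2.16) higher, where DESeq2 gave KCNN4 an adjusted p of 0.054. KCNS3 (1.13, limma adjusted p 0.031) and KCNH1 (-1.05, limma adjusted p 0.043) were close to the threshold and depended on single libraries. KCNH1 lost the call on leaving out any library of that comparison except WT DMSO replicate 2, E1 DMSO replicate 2 and E1 TAZ replicate 3, with adjusted p from 0.054 to 0.12. KCNS3 lost it without WT DMSO replicate 3, WT TAZ replicate 2 or 3, or E1 TAZ replicate 1 or 3, with adjusted p from 0.054 to 0.093. KCNQ1 lost it without WT DMSO replicate 2, WT TAZ replicate 1 or 3, or E1 TAZ replicate 3, with adjusted p from 0.051 to 0.065.

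Genes whose products bind, regulate or work beside potassium channels were taken as a separate list of 47, of which 36 were tested. In WT 8 rose and 1 fell, in E1 7 rose and 2 fell, and in F2 7 rose and 2 fell, and the medians of the log2 change were 0.36, 0.09 and 0.15. Over all tested genes the shares that rose and fell were 14.5% and 6.77%, 11.3% and 3.78%, and 13.3% and 3.71%, with medians of 0.03, 0.02 and 0.02. Of the 31 partner genes with at least 10 reads in each DMSO library, 3 rose and 1 fell in WT, and 2 rose and 2 fell in each clone, with medians of 0.23, -0.02 and 0.05. Of all such genes 8.21% rose and 7.35% fell in WT, 4.48% and 4.06% in E1, and 5.94% and 4.10% in F2. Among the 36 tested partner genes, ANK3, CNTNAP2, HCN4, NEDD4L and SGK1 rose in all 3 lines and LGI1 fell in all 3. CNTNAP2, which clusters KCNA2-type channels beside the node of Ranvier, went from means of 3.23, 1.51 and 0.404 in WT, E1 and F2 to 17646, 20657 and 12092, with log2 changes of 12.69, 13.28 and 13.18. ANK3, an ankyrin of the axon initial segment, went from 2.18 ± 2.2 to 211 ± 14, from 1.57 ± 0.53 to 633 ± 39 and from 0.404 ± 0.70 to 151 ± 13. HCN4, a pacemaker channel, went from 1.26 ± 1.4 to 175 ± 18, from 0.619 ± 0.54 to 135 ± 4.5 and from 1.77 ± 1.1 to 262 ± 8.4. These 3 genes were near the floor with DMSO in every line.

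NEDD4L, a ubiquitin ligase that removes channels from the membrane, and SGK1, a kinase that restrains it, rose together. NEDD4L went from 5.21 ± 2.4 to 7775 ± 80 in WT, from 4.62 ± 3.5 to 7218 ± 270 in E1 and from 6.13 ± 3.1 to 5029 ± 214 in F2. SGK1 went from 97.5 ± 56 to 2391 ± 87, from 18.1 ± 4.0 to 1183 ± 24 and from 15.3 ± 2.5 to 1994 ± 24. LGI1, a secreted neuronal protein that acts on Kv1 channels, fell, with log2 changes of -1.04, -2.27 and -2.14. REST, a repressor of neuronal genes, was 2939 ± 17 and 3652 ± 261 in WT and passed the threshold in no line.

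Markers of the tissues in which these channels are known moved with tazemetostat as well. Over all tested genes 14.5%, 11.3% and 13.3% rose in WT, E1 and F2. Of all genes with at least 10 reads in each DMSO library, 8.21%, 4.48% and 5.94% rose. ACTA2, SYT1, RYR2, PAX8 and LRP2 had DMSO means of at most 10.1 in any line. They entered the test only through their tazemetostat libraries. The summed smooth muscle markers (6 genes) ranged from 5732 to 6052 with DMSO and from 24031 to 25341 with tazemetostat in WT, from 8219 to 13720 and from 29767 to 31976 in E1, and from 3930 to 4416 and from 26233 to 28119 in F2. ACTA2, CNN1 and TAGLN rose in each line, and MYH11 stayed at 9.01 ± 2.8 or lower in the mean. Of the 4 smooth muscle markers with at least 10 reads in each DMSO library, 3, 2 and 3 rose in WT, E1 and F2. Of 12 neuronal markers 4 were tested, of which 3 rose in WT and F2 and 2 in E1, with SYT1 and INA in each. SYP, also tested, was lower with tazemetostat in all 3 lines, with log2 changes of -0.51, -0.77 and -0.69, under the fold threshold. SNAP25 and ELAVL4 stayed at the floor in each line, and in E1 6 of the 12 did. Of the 3 tested neuronal markers with at least 10 reads in each DMSO library, 2, 1 and 2 rose in WT, E1 and F2. The summed neuronal markers were mostly TUBB3, at 4958 ± 334 with DMSO and 18817 ± 287 with tazemetostat in WT. Their sum ranged from 5393 to 6124 and from 21021 to 21379 in WT, from 3922 to 8461 and from 6884 to 8632 in E1, and from 2877 to 3767 and from 6225 to 7325 in F2.

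Among the cardiac and skeletal muscle markers RYR2, TNNT2 and TTN rose in each line. TNNI3 was lower with tazemetostat in all 3 lines, with log2 changes of -0.44, -0.59 and -0.64, and TNNI3 and ACTN2 passed the threshold for that change in none. Of the 12 cardiac and skeletal muscle markers 5 were tested, and MYL2 stayed at the floor. Their sum ranged from 166 to 198 with DMSO and from 830 to 1018 with tazemetostat in WT, from 158 to 197 and from 457 to 474 in E1, and from 138 to 166 and from 602 to 652 in F2. Of 10 kidney epithelium markers PAX8 and LRP2 rose in each line, EPCAM fell in E1 (-1.37) and F2 (-1.14), CDH1 rose in E1, and UMOD and SLC34A1 stayed at the floor. Their sum ranged from 250 to 295 and from 429 to 527 in WT, from 19.6 to 39.0 and from 351 to 399 in E1, and from 133 to 195 and from 546 to 612 in F2. Of tested cardiac and skeletal muscle markers with at least 10 reads in each DMSO library, 2 of 4 rose in WT. In E1 1 of 3 did and in F2 0 of 2. For the kidney markers with such reads, 0 of 2 rose in WT, and in F2 0 of 2 rose and 1 fell. In E1 no tested kidney marker had such reads. The part of these marker changes in the results on potassium channel genes was not tested.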

How the data were processed

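The authors deposited 1 table of size-factor-normalized gene counts, a signal per gene symbol and library, for 18 libraries, which per the labels' protocols were stranded, poly(A)-selected and sequenced from both ends. The submitters' processing notes name Trim Galore 0.4.4, STAR 2.6.0a, HTSeq, DESeq2 and hg19. The annotation, and whether counting used strand, are not given in the sources used here. Each value divided by the smallest positive value of its column gave a whole read (tolerance 0.001), so reads per library (25709489 to 39314860) were recovered. Limits on reads cover counting error only.

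In R 4.3.3, limma 3.58.1 was run on log2(value + 1) for the 16154 genes with a mean of at least 10 over 18 libraries: lmFit on 6 group means, eBayes with a trend, 11 contrasts, Benjamini-Hochberg adjustment within each. The fit was also run on simulated counts. These held no genes that go from silent to detected, so that run does not cover such genes. P-values measure the spread between the replicate cultures of 1 line or clone. A group with at most 3 reads in each library counted as being at the floor, and its folds are lower bounds against 3 reads per library. Exon lengths, protein-coding status and overlaps came from GENCODE v29 by symbol, for all 93 genes. Promoters came from RefSeq, GRCh38.p14.

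Genes were named by rule: silent genes that became detected, the largest changes and those in all 3 lines, every response difference, the 5 highest means and the largest line differences in DMSO. Results for some of these genes are not reported here. Values in every library were foreseen for means of at least 50, and those of lower genes were added after their values were seen. The genes, lists and rules were chosen with earlier results of these data known. Alternatives were other pseudocounts (0.5, 4), filters, scalings and limits, a replicate block, each library left out, edgeR 4.0.16 and DESeq2 1.42.0 on recovered reads.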

Additional observations from a re-analysis of the deposited data

Results flagged for a closer look

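These genes are listed because their change with tazemetostat differed between lines by a test of the difference itself (limma on log2(value + 1), adjusted over 16154 genes). Values are differences of log2 changes.

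KCNJ16 differed in all 3 comparisons, by -2.86 for E1 minus WT, 1.43 for F2 minus WT and -4.29 for E1 minus F2. For KCNT2 the clones E1 and F2 differed from WT by 2.13 and 1.67, and for KCNAB3 by 2.30 and 1.55. KCNC1 differed by 1.49 for F2 minus WT and -2.42 for E1 minus F2.

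KCNK1 differed by -3.10 for F2 minus WT and 2.99 for E1 minus F2, and KCNN2 by -1.16 and 2.06 in the same comparisons. Both had 0 reads in all DMSO libraries. KCNMA1 differed by 1.18 for E1 minus F2, with 0 or 1 read in each DMSO library of those lines.

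For E1 minus WT, KCNQ1 differed by 2.16, KCNN4 by 1.63, KCNS3 by 1.13, KCNH1 by -1.05, KCNN1 by -1.22 and KCNK15 by -1.32. KCNQ1, KCNS3 and KCNN4 were low genes in these lines, with at most 45.8 normalized counts in a library of E1.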

How the results depend on the processing

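Of 104 values past the threshold for a potassium channel gene in a comparison, 82 kept direction and call under every alternative run for them, 22 lost the call under at least 1, and 0 reversed. The cause of each loss was not tested. Under edgeR 9 lost it and under DESeq2 9, mainly response differences of genes with silent DMSO libraries. The counts moved mainly with the filter and the fold limit. With genes of a mean of at least 1 tested, 26, 27 and 25 rose in WT, E1 and F2, and without a filter 30, 27 and 27. With a mean of at least 50, 6, 5 and 5 rose and 1 fell in F2. Without a fold limit 25 rose and 7 fell in WT, 10 fell in E1, and 22 rose and 7 fell in F2. With the same total per library 5 fell in WT. For the lines in DMSO, E1 minus WT gave 1 gene with the mean of 50 and with only its groups in the fit, and 8 without a fold limit. F2 minus WT gave 1 with pseudocount 4, with the mean of 50 and without a filter, and 7 without a fold limit. E1 minus F2 gave 3 with pseudocount 4 and with edgeR, and 14 without a fold limit. With tazemetostat, E1 minus WT gave 17 without a filter and 23 without a fold limit, and F2 minus WT 6 with the mean of 50, 19 without a filter and 24 without a fold limit. Without a fold limit the response differences were 20 for E1 minus WT, 12 for F2 minus WT and 11 for E1 minus F2, the last 3 with the mean of 50 and with edgeR. Leaving out single libraries gave 3 to 5 genes that fell in WT, 1 to 4 for F2 minus WT in DMSO, and 5 to 8 for the response E1 minus F2. Silent genes that became detected were 6 in WT and 7 in F2 when silent meant 0 reads, and 2 in WT, 4 in E1 and 3 in F2 when detected meant at least 50 reads. Same-numbered replicates deviated together with correlations from -0.121 to 0.315, so the numbers were not taken to pair the samples. With a replicate block 14, 15 and 15 genes rose in WT, E1 and F2, and 1 value, KCNH1 in the response E1 minus WT (adjusted p 0.052), lost its call and KCNQ1 in F2 (adjusted p 0.047) and KCNIP2 in WT (adjusted p 0.034) gained one. Depth limits the genes near 3 reads.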
